A study of Homo sapiens with 3 samples.

Results

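Sphingolipids begin with serine palmitoyltransferase, which joins serine to a fatty acyl-CoA in the endoplasmic reticulum. The enzyme pairs SPTLC1 with one of the catalytic subunits SPTLC2 or SPTLC3, and the ORMDL proteins are membrane subunits that restrain it when ceramide is plentiful. The ceramide synthases then attach a second acyl chain to the sphingoid base, each with its own preference for chain length, and in liver CERS2 is known for very long chains.

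The 10 genes described here were SPTLC1, SPTLC2, SPTLC3, ORMDL1, ORMDL2, ORMDL3, CERS2, CERS4, CERS5 and CERS6, out of 61533 genes in the deposited tables. The set was chosen by name around SPTLC3, and SPTLC3 was selected on its own measured fall with oxamate, so that fall is given as a description. Polyadenylated RNA was sequenced from wild-type Hep3B cells, an established human liver cancer line. All cultures grew in the same medium with serum, and there was 1 library in each of 3 conditions. The library named Normoxia came from cells at 20% oxygen and the library named Hypoxia from cells at 1% oxygen. The library named Hypoxia_oxamate came from cells at 1% oxygen that also received sodium oxamate, an inhibitor of lactate dehydrogenase, for 48 hours. No oxamate dose, vehicle control or duration of low oxygen is given in the sources used here. The 3 comparisons share their libraries in pairs, and with 1 library per condition there is no replicate check, no SD and no p-value. In a bulk sample, fewer cells of a type and less RNA per cell cannot be told apart.

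The libraries held 27412147, 26309340 and 24826365 fragments assigned to genes in normoxia, hypoxia and oxamate. FPKM, the unit used for levels, divides fragments by annotated gene length and sequencing depth. That length can exceed the transcripts: for SPTLC1 it was 10589 bases, against 1894 in its longest coding transcript, and for SPTLC3 8527 against 6169. FPKM set between genes, as in the shares and sums below, therefore depends on the annotated lengths. Ratios compare scaled fragments of 1 gene between libraries, with a 95% interval that reflects counting error and nothing else. Change was called by size alone, when a gene differed by at least 2-fold and its higher library held at least 50 fragments. All 10 genes reached that minimum in every comparison. A pair of genes known for hypoxia responses was read as a check of the labels: CA9, a carbonic anhydrase, stood at 6.69, 185 and 233 CPM (fragments over the scaled library total) in normoxia, hypoxia and oxamate, and LDHA, a lactate dehydrogenase subunit, at 485, 1687 and 1944 CPM. Of the hepatocyte-lineage markers, 8 of 8 were detected in every library. Markers of other cell types were at different levels. Blood markers summed to 5.76, 0.795 and 1.08 CPM with CD3E and HBB at 0 throughout. Fibroblast markers summed to 30.5, 35.7 and 29.8 CPM with DCN at 0. Of these 5 fibroblast markers, 2 were at least 2-fold lower with oxamate than in hypoxia, beside 5.08% of all measured genes. They were PDGFRB (3.60-fold lower) and COL1A1 (2.30-fold lower), while LUM was 1.56-fold higher. Endothelial PECAM1 had 1.28, 8.31 and 19.9 CPM with KDR at 0. SOX9, 1 of 3 cholangiocyte markers, was not low, at 204, 134 and 323 CPM, and was 2.40-fold higher with oxamate than in hypoxia. The other cholangiocyte markers were under the fragment minimum in every comparison. KRT7 had 2, 31 and 15 fragments in normoxia, hypoxia and oxamate, and CFTR had 42, 16 and 24. The part of these markers in the results was not tested.

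SPTLC3 was the member with the widest range. It had 302 fragments (1.38 FPKM) in normoxia, 100 (0.422 FPKM) in hypoxia and 8 (0.0371 FPKM) with oxamate. Each library thus stood below the one before in this order, and the last value rests on 8 fragments. SPTLC3 fell 3.23-fold in hypoxia (interval 2.57 to 4.09) and a further 11.3-fold with oxamate (5.52 to 26.9). Against normoxia the oxamate library was 36.5-fold lower (18.3 to 85.3). Its FPKM exceeded that of 50.4% of all 19871 protein-coding genes in normoxia, of 41.3% in hypoxia and of 28.3% with oxamate. Genes with 0 fragments are included in that set, so these are not ranks among measured genes. Among protein-coding genes past the fragment minimum, 1.86% had a lower hypoxia ratio and 0.067% had a lower ratio of oxamate to hypoxia. The second rank restates the fall on which SPTLC3 was selected. Hepatocyte-lineage markers moved the same way. Their summed level was 29967, 15159 and 9926 CPM, and 5 of 8 fell at least 2-fold in hypoxia, 4 of 8 with oxamate against hypoxia and 6 of 8 with oxamate against normoxia. Of all measured genes, 8.07%, 5.08% and 15.3% were lower by that rule in these comparisons. ALB, the albumin gene and the most abundant of them, had 18298, 8887 and 6809 CPM. The part of this change in the SPTLC3 and CERS4 results was not tested. SPTLC3, ENSG00000172296, lies at chr20:13008972-13169103 on the plus strand (hg38, as for all gene positions here).

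SPTLC2, the other catalytic subunit, did not pass the 2-fold rule in any comparison. It stood at 3.13, 4.12 and 3.45 FPKM in normoxia, hypoxia and oxamate, so hypoxia was its highest library. The ratio was 1.33-fold up in hypoxia (1.23 to 1.44) and 1.19-fold down from there with oxamate (1.10 to 1.29). Against normoxia the oxamate value was 1.12-fold higher, and it turned to the other direction, -0.16 on the log2 scale, when a trend with gene length was removed. SPTLC1, the shared subunit, was the flattest of the trio at 9.11, 8.19 and 8.74 FPKM. With oxamate it was 1.07-fold above hypoxia (1.01 to 1.14). Its ratio of 1.10-fold lower in hypoxia (1.04 to 1.16) was 0.02 above 0 on the log2 scale when libraries were scaled by total fragments. SPTLC2 (ENSG00000100596) lies at chr14:77505997-77616637 and SPTLC1 (ENSG00000090054) at chr9:92000087-92115413, both on the minus strand.

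The make-up of the catalytic pair restates the fall of SPTLC3 on which it was selected, and is given as a description. Of the FPKM of SPTLC2 and SPTLC3 together, SPTLC3 made up 30.5% in normoxia, 9.28% in hypoxia and 1.06% with oxamate. By fragments the shares were 23.4% (exact interval 21.1 to 25.8), 6.63% (5.42 to 8.0) and 0.741% (0.320 to 1.45). SPTLC2 stood 2.27-fold above SPTLC3 per length in normoxia, 9.78-fold in hypoxia and 93-fold with oxamate. The summed level of both was 4.51, 4.55 and 3.49 FPKM, so the totals of normoxia and hypoxia were close while their parts differed. Set against SPTLC1, the sum was 0.495, 0.555 and 0.399 per unit of SPTLC1, a size that depends on the annotated lengths. The plot of levels by library shows these values beside those of the other members.

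**Figure D1:**
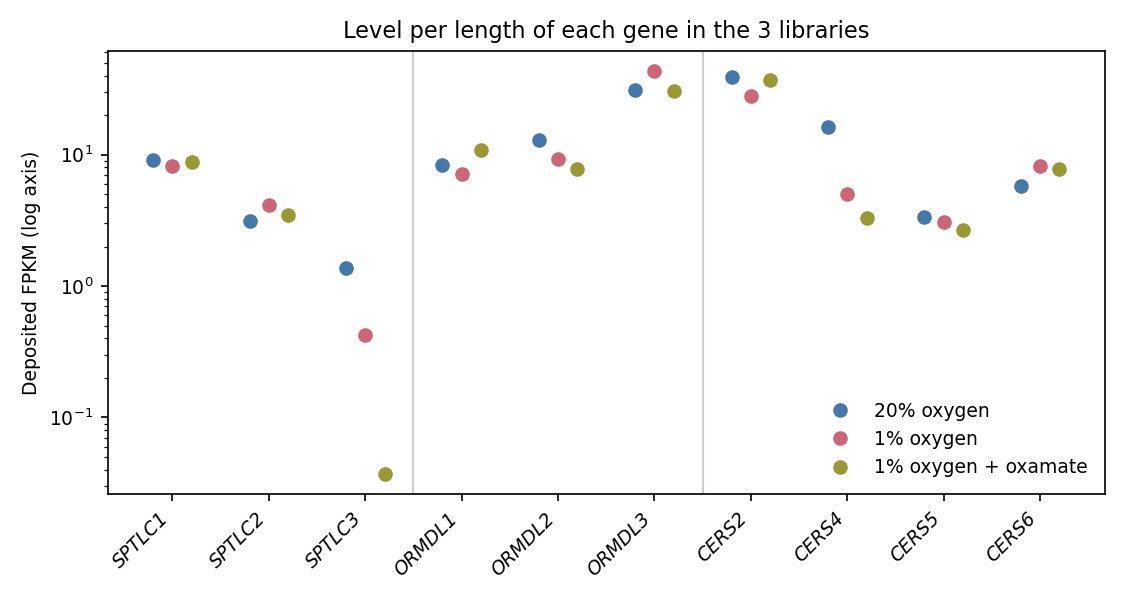
FPKM of the 10 genes in the 3 libraries on a log axis, 1 point per library and gene, with no error bars because there was 1 library per condition. SPTLC3 runs from 1.38 to 0.0371 FPKM and CERS4 from 16.2 to 3.28, while SPTLC1 stays between 8.19 and 9.11.

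The shares above set reads of related transcripts against each other. Over aligned coding sequences from GENCODE 29, SPTLC2 and SPTLC3 were 67.9% identical, against 56.0% for SPTLC1 and SPTLC2 and 54.5% for SPTLC1 and SPTLC3. Of the 31-base words in the longest coding transcript of each gene, SPTLC3 shared 2.04% with other genes, SPTLC2 3.49% and SPTLC1 10.8%. The words of SPTLC1 were shared mostly with a pseudogene, SPTLC1P1. Annotated sequence outside these transcripts was not read.

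The 3 ORMDL genes, whose proteins hold the enzyme in check, did not pass the 2-fold rule, and their libraries ranked differently. ORMDL3 was the most abundant at 31.3, 43.4 and 30.7 FPKM, highest in hypoxia. It was 1.40-fold higher in hypoxia (1.34 to 1.47) and 1.41-fold lower with oxamate than in hypoxia (1.34 to 1.47), which put the oxamate library close to normoxia. ORMDL1 ran the other way, with 8.36, 7.10 and 10.8 FPKM. In hypoxia it was 1.17-fold lower (1.06 to 1.29). Its oxamate value was 1.53-fold above hypoxia (1.39 to 1.68), the highest ratio of any member with oxamate. ORMDL2 was lower at each step, with 12.9, 9.20 and 7.75 FPKM, 1.39-fold below normoxia in hypoxia (1.25 to 1.53) and 1.18-fold below that with oxamate (1.05 to 1.32). It ended 1.64-fold below normoxia (1.47 to 1.82). ORMDL3 made up 59.6%, 72.7% and 62.4% of the family's FPKM, ORMDL2 24.5%, 15.4% and 15.7%, and ORMDL1 15.9%, 11.9% and 21.9%. The family's sum was 5.77, 7.29 and 5.64 times the FPKM of SPTLC1, a size that depends on the annotated lengths.

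Reads of ORMDL2 are less certain, since 46.4% of its exon bases overlap DNAJC14 and another gene on the opposite strand and the strand setting is not given in the sources used here. ORMDL1 overlaps PMS1 over 2.6% of its exon bases, and the longest coding transcript of ORMDL3 shared no 31-base word with other genes. The 3 coding sequences are each 459 bases and 68.8% to 73.9% identical. ORMDL1 (ENSG00000128699) lies at chr2:189770267-189784364 on the minus strand, ORMDL2 (ENSG00000123353) at chr12:55818041-55821879 on the plus strand and ORMDL3 (ENSG00000172057) at chr17:39921041-39927601 on the minus strand.

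Among the ceramide synthases, CERS4, which prefers long acyl chains, changed most. It had 1694 fragments (16.2 FPKM) in normoxia, 570 (5.05 FPKM) in hypoxia and 337 (3.28 FPKM) with oxamate. It fell 3.18-fold in hypoxia (2.89 to 3.5), and 1.93% of measured protein-coding genes had a lower ratio. With oxamate it was 1.53-fold below hypoxia (1.33 to 1.75), short of the 2-fold rule, and 4.86-fold below normoxia (4.32 to 5.48), past it. The hepatocyte-lineage markers given with SPTLC3 above stood in the same order of libraries as CERS4. The longest coding transcript of CERS4 (1803 bases, against an annotated length of 4059) shared no 31-base word with other genes.

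CERS2, the very-long-chain synthase and the most abundant of these, stood at 39.0, 28.1 and 37.1 FPKM. It was 1.37-fold lower in hypoxia (1.32 to 1.44) and 1.33-fold higher with oxamate than in hypoxia (1.27 to 1.39), so its hypoxia library was the lowest. CERS6, which makes palmitoyl ceramides, had 5.77, 8.21 and 7.83 FPKM. Its hypoxia value was 1.44-fold above normoxia (1.33 to 1.56) and the oxamate value was within counting error of hypoxia (1.04-fold lower, 0.968 to 1.12). CERS5, a second palmitoyl-preferring synthase, was the least abundant, at 3.37, 3.08 and 2.68 FPKM, and its hypoxia ratio of 1.08-fold lower had an interval holding 1 (0.964 to 1.22) and reached 0.04 on the log2 scale with total-fragment scaling. With oxamate CERS5 was 1.14-fold below hypoxia (1.01 to 1.29). Strand matters here too: 37.2% of CERS2 exon bases overlap SETDB1 and AL590133.2, and 41.4% of CERS6 exon bases overlap CERS6-AS1, all on the opposite strand.

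Together the 4 synthases summed to 64.3 FPKM in normoxia, 44.4 in hypoxia and 50.9 with oxamate. CERS4 supplied 25.2% of that sum in normoxia, 11.4% in hypoxia and 6.45% with oxamate. CERS2 supplied 60.6%, 63.2% and 72.9%, and CERS6 supplied 8.96%, 18.5% and 15.4%. The oxamate library thus had the largest CERS2 share and the smallest CERS4 share. CERS5 lay between 5.23% and 6.93% in all 3 libraries. The genes lie at chr1:150960583-150975003 (CERS2, ENSG00000143418, minus strand), chr19:8206736-8262421 (CERS4, ENSG00000090661, plus), chr12:50129289-50167533 (CERS5, ENSG00000139624, minus) and chr2:168456249-168775134 (CERS6, ENSG00000172292, plus).

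**Figure D2:**
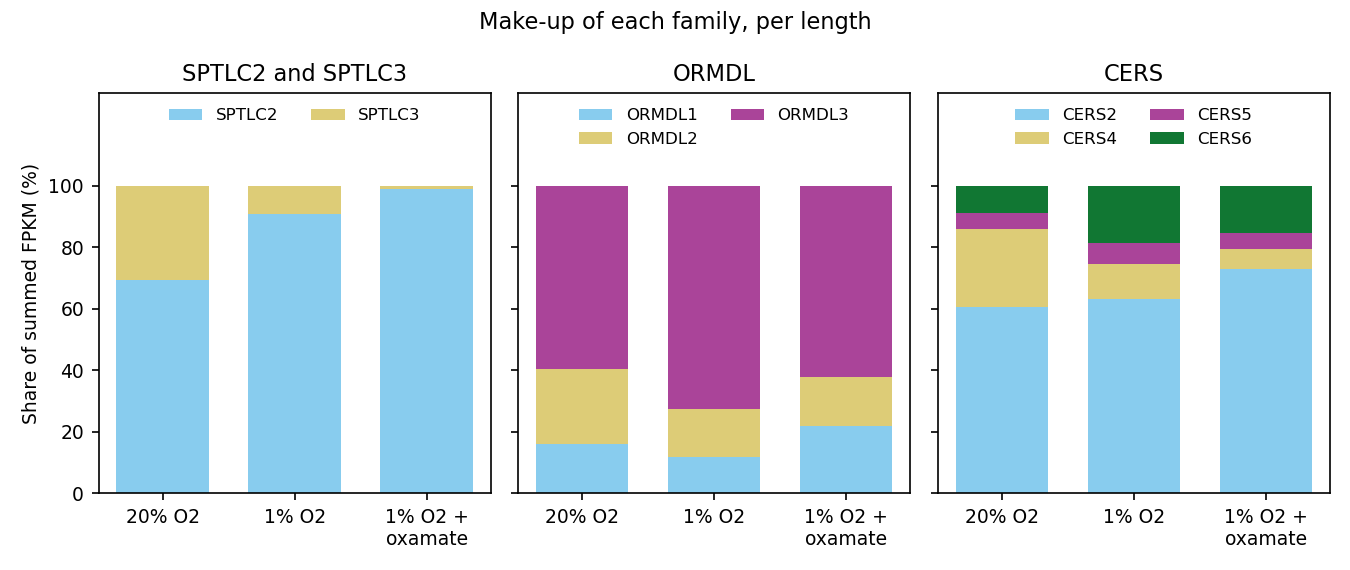
Share in percent of each family's summed FPKM held by each gene, in normoxia, hypoxia and oxamate, as stacked bars from 0. SPTLC3 goes from 30.5% to 1.06% of the catalytic subunits, ORMDL3 peaks at 72.7% in hypoxia, and CERS4 goes from 25.2% to 6.45% of the ceramide synthases.

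Against all genes, the hypoxia comparison held 0 members higher and 2 lower of 10, beside 10.8% of 13549 measured genes higher and 8.07% lower. The members' median log2 ratio was -0.18 and that of all genes -0.11. When libraries were scaled by total fragments, 1775 of all genes were higher and 751 lower, in place of 1468 and 1094, and the median of all genes was 0.04 and that of the members -0.02. By counting error alone, 3 members (SPTLC2, ORMDL3 and CERS6) had intervals wholly above 1 and 6 wholly below, beside 33.3% and 46.9% of all genes. The 2 lower members were SPTLC3 and CERS4.

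In oxamate against hypoxia, which is the contrast that chose SPTLC3, 0 members were higher and 1 was lower, beside 5.92% and 5.08% of 13733 genes. The medians were -0.21 for the members and -0.01 for all genes. The 3 members with intervals above 1 were SPTLC1, ORMDL1 and CERS2, and 6 lay below, beside 34.8% and 36.2% of all genes. Oxamate against normoxia held 0 members higher and 2 lower, beside 15.4% and 15.3% of 13597 genes, with medians of -0.04 and -0.11, the members' becoming 0.05 with total-fragment scaling. SPTLC3 and CERS4 were again the lower members. SPTLC2, ORMDL1 and CERS6 had intervals above 1 in that comparison and SPTLC3, ORMDL2, CERS4 and CERS5 below, beside 37.3% and 47.1% of all genes. In it, the order of CERS2, ORMDL3 and SPTLC1 between the libraries was not settled, as each interval held 1 and each direction flipped under at least 1 other scaling.

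**Figure D3:**
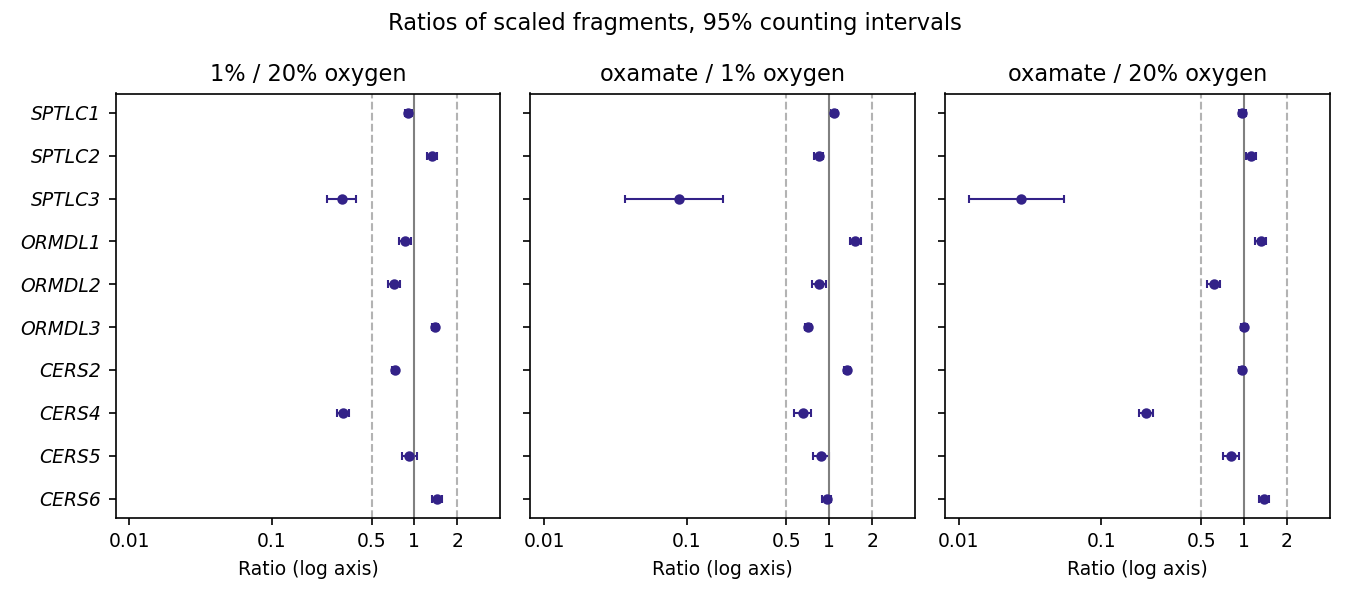
Ratio of scaled fragments for each of the 10 genes on a log axis, 1 panel for each of the 3 comparisons, with 95% intervals for counting error as bars. SPTLC3 lies past the 2-fold lines in every comparison, CERS4 in both comparisons with normoxia, and the other 8 genes stay within them.

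Promoters were read for SPTLC2, ORMDL3 and CERS6 because these were the members with intervals above 1 in hypoxia. The motif searched was ACGTG or GCGTG on either strand (overlapping matches each counted), the core of the hypoxia response element that HIF binds, in 300 bases from 250 before to 50 after the start, from RefSeq on GRCh38.p14. The windows are chr14:77616588-77616887 (minus strand), chr17:39927552-39927851 (minus strand) and chr2:168456022-168456321 (plus strand), and capitals mark each match as read on the printed strand.
SPTLC2: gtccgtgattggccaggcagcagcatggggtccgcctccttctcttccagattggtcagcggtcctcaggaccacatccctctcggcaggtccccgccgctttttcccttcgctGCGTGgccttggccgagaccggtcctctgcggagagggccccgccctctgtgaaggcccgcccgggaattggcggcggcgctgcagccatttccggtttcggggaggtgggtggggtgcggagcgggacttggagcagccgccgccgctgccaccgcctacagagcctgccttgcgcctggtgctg
ORMDL3: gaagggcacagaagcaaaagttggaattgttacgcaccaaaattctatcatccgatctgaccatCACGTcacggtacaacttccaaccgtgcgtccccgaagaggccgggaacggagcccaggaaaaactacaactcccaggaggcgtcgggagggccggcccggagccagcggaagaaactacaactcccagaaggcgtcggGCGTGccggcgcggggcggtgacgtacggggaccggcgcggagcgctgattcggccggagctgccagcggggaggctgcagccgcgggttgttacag
CERS6: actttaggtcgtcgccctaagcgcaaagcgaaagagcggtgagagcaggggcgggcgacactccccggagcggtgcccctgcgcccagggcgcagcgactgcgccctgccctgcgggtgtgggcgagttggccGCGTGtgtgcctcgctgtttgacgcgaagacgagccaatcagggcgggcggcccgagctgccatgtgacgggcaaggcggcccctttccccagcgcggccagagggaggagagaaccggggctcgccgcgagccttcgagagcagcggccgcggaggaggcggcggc
They hold 1, 2 and 1 matches. ORMDL3 has 2 further start windows with 1 match each. Of the members lower in hypoxia by interval, SPTLC1 had 0 matches, ORMDL2 had 1, and the 2 windows of ORMDL1 had 4 and 3. CERS5 had 2. Of all 35116 promoter windows of this length, 48.4% hold the motif, so its presence is common, and a match is a description of letters and not a binding site. SPTLC3, CERS2 and CERS4 were not matched in the promoter table.

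Around the members, 68 other genes of sphingolipid metabolism were read by role. In hypoxia 1 of 54 measured genes was higher and 7 were lower, beside 10.8% and 8.07% of all genes. The median log2 ratio was -0.42, or -0.26 with total-fragment scaling. With oxamate against hypoxia 4 of 53 were higher and 1 lower (median 0.21), beside 5.92% and 5.08% of all genes. Against normoxia 8 of 54 were higher and 8 lower (median -0.29), close to the 15.4% and 15.3% of all genes. Without genes that share exons with others, 3 were lower in hypoxia, 2 higher with oxamate over hypoxia, and 5 higher and 4 lower over normoxia. That setting leaves such genes out, so the smaller counts are not calls that failed. Over all genes, 610 of 6844 were then lower in hypoxia and 458 of 6918 higher with oxamate over hypoxia. With oxamate over normoxia, 1068 of 6865 were higher and 1126 lower.

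With oxamate against hypoxia, the other genes of de novo synthesis had intervals above 1 in 7 of 7 measured cases, though 0 reached 2-fold (median 0.63). Over all genes 34.8% had such intervals and the median was -0.01. DEGS1, the desaturase that turns dihydroceramide into ceramide, had 18.2, 24.3 and 42.4 FPKM and rose 2.37-fold over normoxia with oxamate (2.21 to 2.54). RTN4, an endoplasmic reticulum shaping protein that also restrains the palmitoyltransferase and the most abundant of the role, had 34.6, 38.0 and 53.5 FPKM. SPTSSA and SPTSSB, the small activating subunits of the enzyme, and KDSR, the next reductase, are named here after their values were seen. SPTSSA had 12.4, 6.38 and 9.82 FPKM, SPTSSB 13.0, 12.8 and 17.9, and KDSR 3.32, 2.5 and 4.28. CERS1, a ceramide synthase of nerve and muscle, was 2.09-fold higher with oxamate than in normoxia (1.5 to 2.94), but 67.1% of its exon bases overlap GDF1. CERS3 had 0, 1 and 3 fragments.

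Of the 12 measured genes that move or convert ceramide, 2 were higher and 1 lower with oxamate than in hypoxia (median 0.26). Over all genes 5.92% were higher and 5.08% lower. By interval 7 of the 12 lay above 1 and 3 below, beside 34.8% and 36.2% of all genes. UGCG, which makes glucosylceramide, had 5.52, 9.47 and 21.4 FPKM and rose 2.27-fold with oxamate over hypoxia (2.12 to 2.44). SGMS2, a sphingomyelin synthase, rose 3.17-fold in the same comparison (2.49 to 4.07), from 0.433 to 1.37 FPKM. ST3GAL5, which makes the ganglioside GM3 by adding sialic acid, fell 2.74-fold (2.11 to 3.59), from 0.514 to 0.187 FPKM. SAMD8 and PLEKHA8, a ceramide phosphoethanolamine synthase and a glucosylceramide carrier, passed the rule only over normoxia, at 2.90-fold (2.58 to 3.28) and 2.56-fold (2.44 to 2.69). CERK, the ceramide kinase and the gene of the role with the highest mean FPKM over the libraries, had 18.9, 19.1 and 21.

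Genes that break sphingolipids down included ACER2, an alkaline ceramidase, which rose 3.37-fold in hypoxia (2.39 to 4.84), and SMPD2, a neutral sphingomyelinase, which fell 2.67-fold (2.10 to 3.42). PSAP, the activator protein precursor and the most abundant of them, had 252, 276 and 262 FPKM. SPHK1, a sphingosine kinase, had 33.6, 6.61 and 17.5 FPKM, so it fell 5.02-fold in hypoxia (4.66 to 5.43) and rose 2.66-fold with oxamate (2.45 to 2.89). The receptor S1PR3 rose 4.30-fold with oxamate over hypoxia (3.90 to 4.74), and SPHK2 fell 2.57-fold with oxamate against normoxia (2.40 to 2.75). Reads of SPHK2 and SMPD2 are less certain, as the strand setting is not given. Genes on the opposite strand, RPL18 among them, overlap 22.3% of SPHK2 exon bases, and PPIL6 overlaps 20.3% of those of SMPD2. MFSD2A, also on the list, had 3, 1 and 5 fragments and was not measured.

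Serine, a substrate of the palmitoyltransferase, has its own genes on the list. All 5 of them had intervals below 1 in hypoxia, beside 46.9% of all genes, and 3 were at least 2-fold lower, beside 8.07%: PHGDH, the first enzyme of serine synthesis (4.64-fold lower), PSAT1 (4.28-fold lower, 163 to 37.7 FPKM) and SHMT2 (2.12-fold lower). With oxamate against normoxia 3 of the 5 were lower by the rule, beside 15.3% of all genes. They were PHGDH (3.07-fold lower), PSAT1 (2.55-fold lower) and PSPH (2.59-fold lower), and PSPH did not pass in the other comparisons. With oxamate against hypoxia 0 of the 5 passed the rule. By interval 4 of them lay above 1 and 1 below in that comparison, beside 34.8% and 36.2% of all genes. Of the 11 measured acyl-CoA elongation genes 2 were lower in hypoxia, ELOVL7 (2.01-fold, 1.76 to 2.30) and HACD1 (3.68-fold, 2.69 to 5.12). By interval, 10 of the 11 lay below 1 and 0 above in hypoxia, beside 46.9% of all genes below. With oxamate against normoxia 11 lay below and 0 above, beside 47.1% below. With oxamate against hypoxia 5 lay above and 3 below, beside 34.8% and 36.2%. TECR was 2.04-fold lower than normoxia with oxamate, and DBI, the most abundant, stood at 92.1, 92.2 and 72.5 FPKM. ELOVL7 and SHMT2 lost their hypoxia call, and TECR its own, when libraries were scaled by total fragments or, for the first pair, when a trend with gene length was removed. TECR also lost it when a trend with GC content was removed (-0.98 on the log2 scale). When the whole interval had to pass 2-fold, ELOVL7 lost its call in hypoxia, and TECR, HACD1 and CERS1 lost theirs with oxamate against normoxia. A prior count of 5 also ended the calls of ELOVL7 and CERS1.

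**Figure D4:**
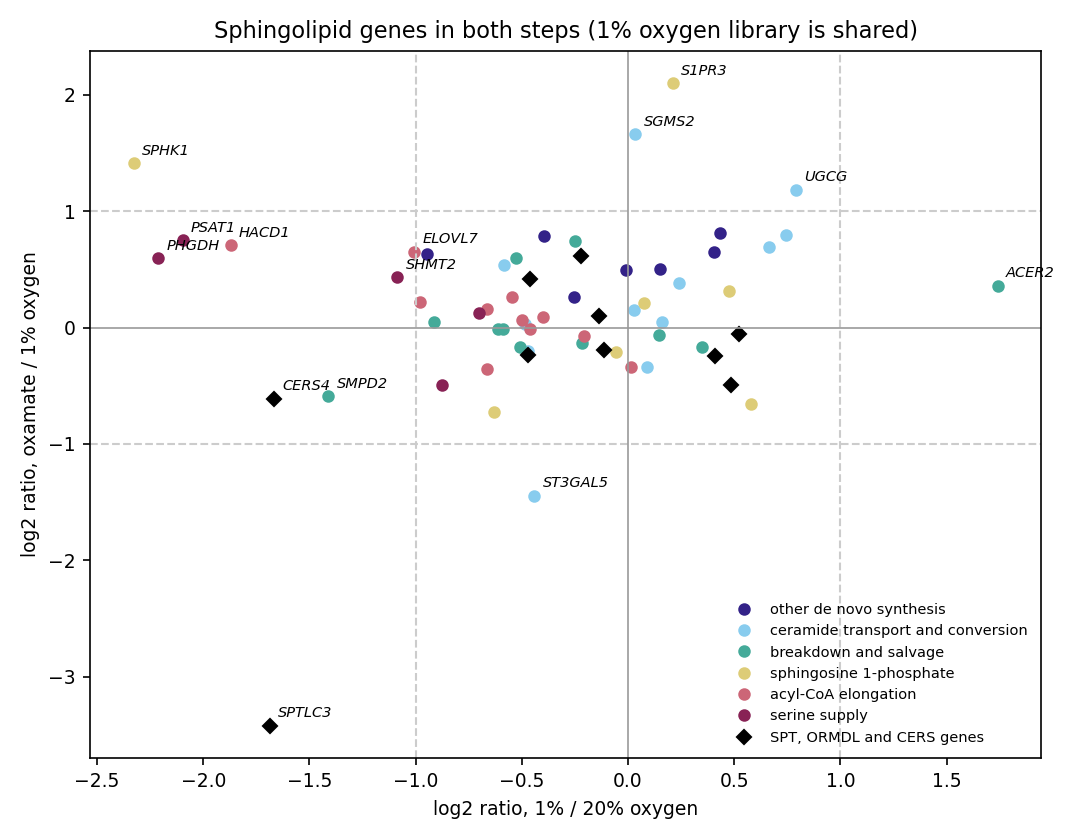
Each point is a gene, a member (diamond) or a measured gene of the list (circle, coloured by role), with its log2 ratio of hypoxia over normoxia on the x axis and of oxamate over hypoxia on the y axis; dashed lines mark 2-fold and the axes share the hypoxia library. SPTLC3 is the lowest point, 11.3-fold below hypoxia with oxamate, while the 7 other de novo genes lie above 0 on the y axis.

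Near the members on the chromosome, BTBD3 is the nearest coding gene on the left of SPTLC3, 1082363 bases away, and was 2.42-fold higher in hypoxia, while ISM1 on its right was under the fragment minimum. GSDMB, 1187 bases from ORMDL3, was 3.30-fold higher in hypoxia, where ORMDL3 was 1.40-fold higher. CD320, 39706 bases from CERS4, was 2.19-fold lower in hypoxia, as was ANXA9 beside CERS2 at 2.86-fold. ISM2 beside SPTLC2 and MMP19 beside ORMDL2 were 7.39-fold and 7.10-fold higher in hypoxia. IARS1 near SPTLC1 was 2.05-fold lower. With oxamate against hypoxia, OSGEPL1 beside ORMDL1 was 2.91-fold lower, MMP19 was 2.45-fold lower and STK39 beside CERS6 was 2.68-fold higher. Against normoxia, the oxamate library was at least 2-fold higher for BTBD3, GSDMB, ISM2, MMP19 and STK39 and at least 2-fold lower for CD320, ANXA9, IARS1 and OSGEPL1.

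Among 12041 protein-coding genes, those most like SPTLC3 were ADH6, SULT1E1, RHBG, HSD17B8 and PRR15L, at Euclidean distances of 0.644 to 0.936 over the log2 ratios of both steps, which share the hypoxia library. Their fragments in normoxia, hypoxia and oxamate ran from 443, 165 and 21 for ADH6 to 245, 113 and 5 for PRR15L, so these patterns too end on few fragments.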

How the data were processed

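Each condition gave 1 poly(A)-selected library from 3 µg of Hep3B RNA, per the labels' protocols. The deposited tables give 1 value per gene, taken as FPKM from the values since the file headers name only the sample. The submitters' processing notes list genome hg38 and, with roles not stated, the tools featureCounts 1.5.0-p3, edgeR 3.22.5, HISAT2 2.0.5 and StringTie 1.3.3b. Strand handling is not given in the sources used here. Multiplying each deposited FPKM by gene length gave whole multiples of 1 constant per library (within 0.01), and these whole numbers were used as fragments in place of the counts the design had assumed.

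Library scaling followed the trimmed mean of M values (factors 0.943, 1.05 and 1.01 for normoxia, hypoxia and oxamate), computed with pandas 2.3.3, scipy 1.17.1 and numpy 2.4.6 under Python 3.11.15. Genes with at least 10 fragments in all entered the scaling. Ratios have 95% exact conditional binomial intervals and shares exact (Clopper-Pearson) ones. No molecular identifiers are described, so fragments are not independent molecules and these intervals reflect counting error alone. Log2 ratios use a prior count of 0.5. The procedure was tested on simulated data. Gene types and overlaps came from GENCODE 29. A stretch of coding sequence is not reported here. Named were all members, list genes past the size rule or most abundant in their role, the 5 genes most like SPTLC3, and neighbouring genes past the rule. The members and lists were chosen with earlier results of these data known.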

Additional observations from a re-analysis of the deposited data

How the results depend on the processing

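No paired analysis was possible because each condition has 1 library. No direction of a called member reversed under the alternatives: SPTLC3 lay between -1.83 and -1.53 (log2) in hypoxia against normoxia, between -3.48 and -2.90 in oxamate against hypoxia and between -5.24 and -4.52 in oxamate against normoxia, and CERS4 between -1.68 and -1.51, -0.67 and -0.57, and -2.30 and -2.13. With a minimum of 200 fragments, 0 members were lower with oxamate against hypoxia, since SPTLC3 had 100 fragments in hypoxia. Over all genes 338 of 10551 were then lower. In hypoxia 0 list genes were higher at that minimum, beside 723 of 10697 genes, and 2 of the 5 genes most like SPTLC3 were shared. With a minimum of 10, 2 list genes were lower with oxamate against hypoxia, beside 1867 of 19323 genes. At a 1.5-fold rule, 1 member (ORMDL1) was higher and 2 lower with oxamate against hypoxia. The list had 4 of 54 higher and 18 lower in hypoxia, beside 2530 and 2970 of 13549 genes. With oxamate against hypoxia it had 16 of 53 higher and 4 lower, beside 1880 and 1895 of 13733. Against normoxia 16 of 54 were lower with oxamate, beside 3905 of 13597. Without genes that share exons the list had 3 lower in hypoxia, 2 higher with oxamate against hypoxia, and 5 higher and 4 lower against normoxia. The genes missing from these counts were left out and did not lose their calls. With fragments in place of FPKM, the shares in normoxia and hypoxia were 23.4% and 6.63% for SPTLC3. In normoxia, hypoxia and oxamate they were 18.0%, 13.2% and 24.1% for ORMDL1, 18.7%, 11.4% and 11.6% for ORMDL2, 63.3%, 75.4% and 64.3% for ORMDL3, 58.5%, 57.2% and 66.9% for CERS2, 21.3%, 9.0% and 5.18% for CERS4, 7.37%, 9.14% and 7.05% for CERS5, and 12.8%, 24.7% and 20.8% for CERS6. Depth limits SPTLC3 with oxamate most, at 8 fragments, and no alternative can stand in for a second culture.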
